A study of Mus musculus with 41 samples.

Results

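The 10 genes described here are the MHC class II genes of the mouse, with the chaperones and the transactivator that belong to the same pathway, namely H2-Aa, H2-Ab1, H2-Eb1, Cd74, Ciita, H2-DMa, H2-DMb1, H2-DMb2, H2-Oa and H2-Ob. They were picked by gene symbol from the 43346 genes of the count table. All 10 were among the 19292 genes that passed a filter on low counts and were tested. The counts come from RNA of the tibiae of 41 female mice that all carry the p16-INK-ATTAC transgene on a C57BL/6 background. The promoter of p16Ink4a drives this transgene, and the drug AP20187 (AP) activates its product, so that cells with an active p16Ink4a promoter are killed. The 12 young mice are labelled as vehicle-treated and as 6 to 12 months old, and the study's methods describe the young mice as being 6 months of age. The 13 old mice on vehicle (old vehicle) and the 16 old mice on AP (old AP) are labelled as 20 months old, and AP was given at 10 mg/kg 2 times a week for 4 months, which the study's methods place between 20 and 24 months of age. The diaphyses were centrifuged to take out marrow before RNA was extracted, so that each library is a mixture of bone cells with what was left of marrow, vessels and muscle.

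MHC class II molecules carry peptides from endocytosed proteins to the cell surface, where CD4 T cells read them. They are made mainly by B cells, dendritic cells and macrophages, and in other cells after interferon gamma. Ciita is the transactivator of the classical class II genes, on which it acts through a shared promoter element in which an X box and a Y box stand at a fixed distance. H2-Ob is known to depend on Ciita less strictly. H2-Aa and H2-Ab1 encode the alpha and beta chains of I-A, and H2-Eb1 the beta chain of I-E, whose alpha chain is not made in C57BL/6 mice. Cd74 is the invariant chain that fills the groove until the endosome is reached. H2-DMa, with H2-DMb1 or H2-DMb2, forms the exchanger that loads peptide, and H2-Oa and H2-Ob form its inhibitor, known from B cells and some dendritic cells.

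In the coordinates of the count table (mm10), 8 of the 10 genes lie on chromosome 17 between 34092340 (the start of H2-Oa) and 34316199 (the end of H2-Eb1), and Ciita lies at chr16:10488178-10527564. The start region was looked up in the RefSeq promoter table (GRCm38.p6), which had 8 entries for 7 of the 10 genes and none for H2-Ab1, Cd74 and Ciita. An X box core, AGNNAC, followed on the gene's strand by a Y box core, ATTGG, with 15 to 35 bases between them, was searched in the 250 bases before each start. It was found in H2-Oa, H2-DMb1, H2-Ob and H2-Eb1, and in 1.75% of the 32851 promoters of the table. The Y box core alone, read on either strand as ATTGG or CCAAT, was found in 7 of the 8 entries and in 33.8% of all promoters. The pair is printed below for the inhibitor chains and for H2-Eb1, since H2-Ob was the gene that differed most between the groups and H2-Eb1 the one most like H2-Ab1. Capitals mark the X box core and then the Y box core.
H2-Ob (chr17:34238807-34238862, + strand): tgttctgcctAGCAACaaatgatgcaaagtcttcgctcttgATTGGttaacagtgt
H2-Oa (chr17:34092292-34092350, + strand): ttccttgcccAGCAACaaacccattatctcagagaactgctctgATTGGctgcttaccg
H2-Eb1 (chr17:34305765-34305822, + strand): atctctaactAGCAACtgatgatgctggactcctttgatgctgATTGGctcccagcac
The X box core began 88 bases before the start in H2-Ob, 77 bases before it in H2-Oa and 92 bases before it in H2-Eb1, with 25, 28 and 27 bases between the cores. In H2-DMb1 the pair lay 28 bases apart, inside the gene as the count table draws it. H2-Aa, H2-DMb2 and H2-DMa had no such pair in these windows, which says only that these letters were not found there. The starts in the promoter table lie 12350 and 9664 bases before H2-DMa as the count table draws it, and 1942 bases inside H2-DMb2, so that these windows do not adjoin the starts of the counted genes. One of the entries with a Y box core is the nearer of those for H2-DMa.

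The libraries held between 37028959 and 75942717 counts, with a median of 47774880, and the smallest count of a member in any mouse was 103, for H2-Oa. Levels are given as CPM, that is, counts scaled to library size with TMM factors. The levels of genes are compared with each other as CPM per kilobase, with the gene length that the table gives. Cdkn2a, which encodes p16Ink4a, ranged from 0.161 to 1.18 CPM in young mice (median 0.587), from 0.394 to 7.37 CPM in old vehicle mice (median 2.20) and from 0.472 to 7.29 CPM in old AP mice (median 1.10). By edgeR, Cdkn2a was called higher than in young mice with vehicle (log2 fold change 2.22, adjusted p = 0.000332) and with AP (1.55, adjusted p = 0.00773), and it was not called between the old groups (-0.67, adjusted p = 0.265). Bone markers were abundant, with a summed level of 8 osteoblast genes from 6047 to 88129 CPM over all mice. Muscle markers were as abundant, with a summed level of 7 skeletal muscle genes from 5907 to 88104 CPM over all mice. H2-DMb1 and H2-DMb2 are near-identical copies, so that reads can be split between them. H2-Oa overlaps an antisense gene, Ciita overlaps Dexi, and Cd74, on chromosome 18, contains the microRNA gene Mir5107, to which reads of Cd74 can be assigned. Whether strand was used in counting is not given in the sources used here.

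In young mice the invariant chain led the group per length, with 403 ± 67.3 CPM per kilobase (SD, n = 12) for Cd74. The surface chains followed, with 165 ± 28.8 CPM per kilobase for H2-Eb1, 142 ± 26.01 for H2-Aa and 99.3 ± 17.8 for H2-Ab1. Neighbours in this order were compared within the same mice (two-sided exact sign-flip permutation test, 10 comparisons, added after the data had been seen). H2-Eb1 lay above H2-Aa in all 12 young mice (mean difference 22.7 ± 7.23 CPM per kilobase, SD, adjusted p = 0.000814 by the exact test), and so did H2-Aa above H2-Ab1 (43.2 ± 15.8, adjusted p = 0.000814 by the exact test). In CPM alone H2-Aa had a higher mean than H2-Eb1 (267 against 195 CPM), so that their order rests on the gene lengths used. The test measures agreement between mice and not error in those lengths. The exchanger chains H2-DMa and H2-DMb1 were lower, at 18.8 ± 3.39 and 17.9 ± 2.94 CPM per kilobase, and differed by a small amount (0.874 ± 1.03, SD, H2-DMa higher in 9 of 12 mice, adjusted p = 0.0216 by the exact test). H2-Ob (9.05 ± 2.77) and H2-DMb2 (8.83 ± 2.67) were the next pair on this scale, and their difference did not pass (0.219 ± 0.461, SD, adjusted p = 0.139 by the exact test). H2-Oa (4.21 ± 1.42) and Ciita (3.92 ± 0.784) were lowest per length and did not pass either (difference 0.288 ± 0.898, SD, adjusted p = 0.306 by the exact test). Among the old mice H2-Ob moved down to 4.99 ± 1.95 CPM per kilobase (SD, n = 13) with vehicle and to 5.97 ± 2.05 (SD, n = 16) with AP. H2-DMb2 stood at 6.69 ± 2.31 and 7.03 ± 1.83 and Ciita at 4.18 ± 1.71 and 3.85 ± 0.974 in the same groups, and with vehicle H2-Ob and Ciita did not pass (difference 0.807 ± 1.69 CPM per kilobase, SD, 8 of 13 mice with H2-Ob higher, adjusted p = 0.139 by the exact test).

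**Figure D1:**
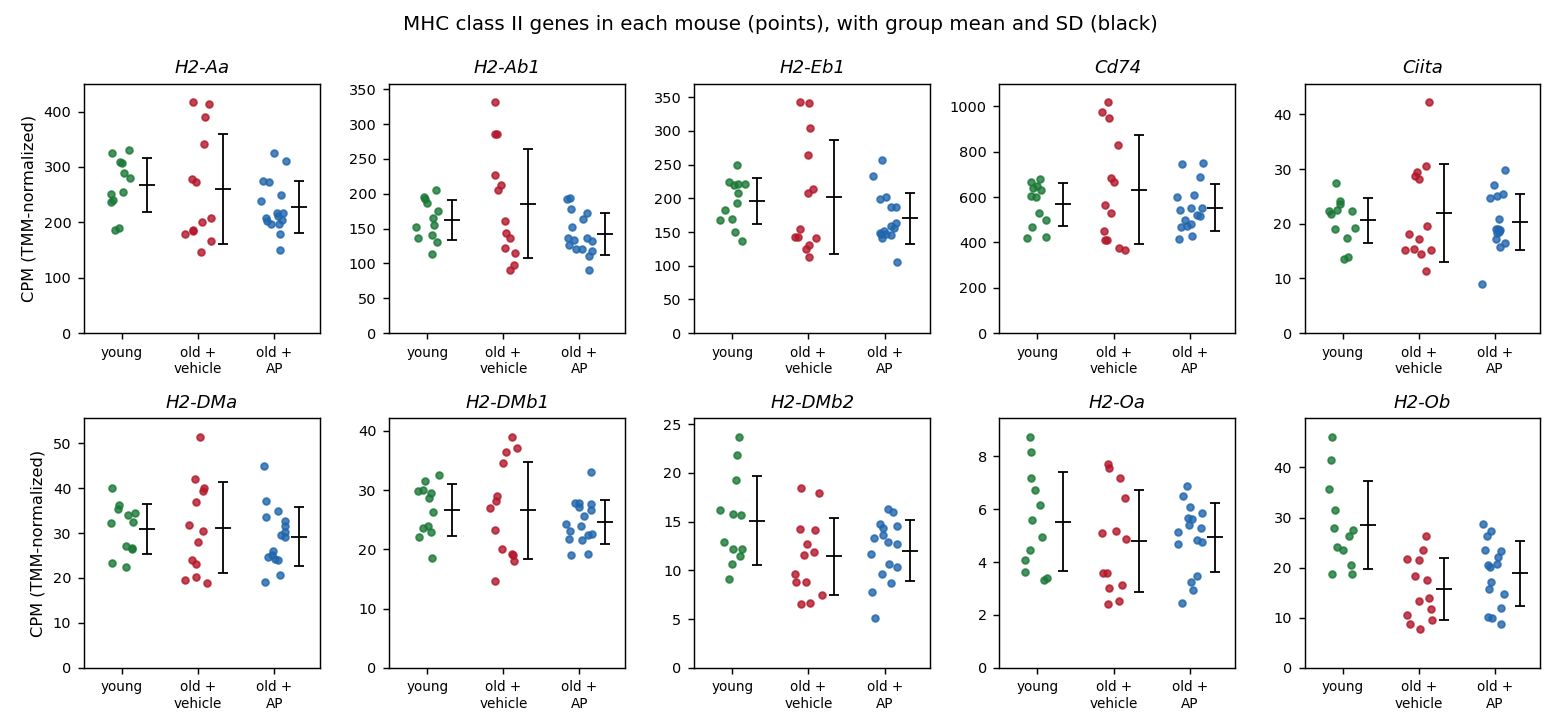
Level of each of the 10 genes (CPM after TMM scaling, linear axes from 0) in each mouse, with 12 young, 13 old vehicle and 16 old AP mice as points and the group mean and SD in black. H2-Ob falls from a mean of 28.5 CPM in young mice to 15.7 CPM with vehicle, and most of the other genes have means close together but a wider spread in the vehicle group.

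The first comparison asks what differs with age, between old vehicle and young mice. Of the 10 genes, 1 fell and none rose. H2-Ob, the beta chain of the inhibitor of peptide loading, was at 0.551 times the young level, and the other 9 genes were not called. Across all genes tested, 9.06% were called in either direction, 4.30% higher and 4.76% lower, so that 1 of 10 is close to the background share.

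H2-Ob had 18.8 CPM in the lowest, 26.9 in the median and 46.1 in the highest young mouse, and 7.68, 13.99 and 26.2 CPM in the old vehicle mice. The groups overlapped, but each of the 13 old mice was under the median of the young, and 9 of them were under the lowest young mouse. The log2 fold change was -0.86 (standard error 0.20, 95% interval -1.26 to -0.46, adjusted p = 0.00224 by the quasi-likelihood test of edgeR, adjusted over all genes by Benjamini-Hochberg). Over the fits that left out 1 mouse each it stayed between -0.94 and -0.78, with an adjusted p of at most 0.00622, also without old vehicle mouse 16, which had the lowest H2-Ob level and the lowest summed level of B cell markers. Young mouse 34 had the highest level, and without it the difference was at its smallest.

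H2-Ob moved together with the genes of B cells. Of 10 B cell markers, 9 were called lower in old vehicle mice (median log2 fold change -1.04, against 0.0066 for all genes), among them Cd79a, a chain of the B cell receptor complex (-0.86). Their summed level ranged from 179 to 596 CPM in young mice and from 72.9 to 363 CPM in old vehicle mice. Their part in the fall of H2-Ob was not tested. In bulk RNA, fewer cells of a type and less RNA per cell cannot be told apart.

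H2-Oa and H2-DMb2 were not called. H2-Oa, the alpha chain of the inhibitor, had a range of 3.32 to 8.74 CPM in young mice (median 5.25) and of 2.42 to 7.73 CPM in old vehicle mice (median 4.89). Its groups overlapped over most of their range (log2 fold change -0.21, 95% interval -0.59 to 0.17, edgeR adjusted p = 0.496). H2-DMb2 ranged from 9.14 to 23.7 CPM (median 14.3) in young mice and from 6.60 to 18.4 CPM (median 11.6) in old vehicle mice. Here 11 of 13 old mice lay below the young median, but the difference missed the adjusted threshold (log2 fold change -0.40, standard error 0.17, unadjusted p = 0.0269 and adjusted p = 0.102 by edgeR).

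The surface chains, the invariant chain and the transactivator had similar means in both groups. H2-Ab1 ranged from 114 to 206 CPM (median 160) in young mice and from 91.1 to 332 CPM (median 161) in old vehicle mice. The medians were close, and the old mice reached both below and above the young ones. The log2 fold change was 0.19 for H2-Ab1 (95% interval -0.13 to 0.52), 0.05 for H2-Eb1 (-0.27 to 0.36), -0.04 for H2-Aa (-0.33 to 0.26), 0.16 for Cd74 (-0.13 to 0.45) and 0.09 for Ciita (-0.24 to 0.42). The exchanger chains H2-DMa (0.01) and H2-DMb1 (-0.0035) were nearest to 0. These intervals leave room for differences of up to about the fold threshold of 0.5 on the log2 scale.

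**Figure D2:**
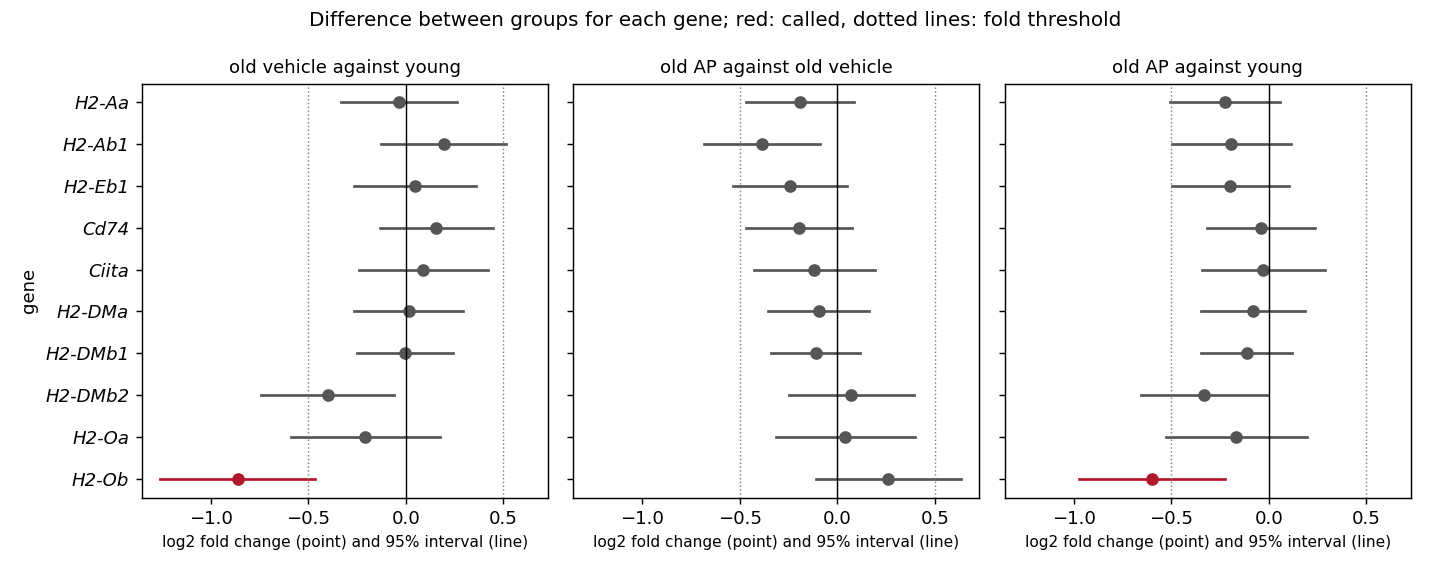
Log2 fold change (point) and 95% interval (line) of each gene in the 3 comparisons, with the first-named group over the second, called genes in red and the fold threshold of 0.5 dotted. H2-Ob is called in both comparisons with young mice (-0.86 and -0.60), and no gene is called between the old groups.

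The second comparison, old AP against old vehicle mice, asks what differs in old bone once cells with an active p16Ink4a promoter have been targeted. None of the 10 genes was called by edgeR or by DESeq2, beside 0.0726% of all genes tested by edgeR and 1.3% of those tested by DESeq2. By edgeR 1 of the 10 had an unadjusted p under 0.05, as did 23.9% of all genes tested. That gene was H2-Ab1, the beta chain of I-A. It ranged from 89.9 to 194 CPM with AP (median 135) and from 91.1 to 332 CPM with vehicle (median 161). Of the AP-treated mice, 11 of 16 lay below the vehicle median, and 6 of the 13 vehicle-treated mice lay above every AP-treated mouse. The log2 fold change was -0.39 (standard error 0.15, 95% interval -0.68 to -0.09), with an unadjusted p of 0.0151 and an adjusted p of 0.125 by edgeR.

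The other members differed less between the old groups. Fitted log2 fold changes were -0.24 for H2-Eb1, -0.20 for Cd74, -0.19 for H2-Aa, -0.12 for Ciita, -0.11 for H2-DMb1 and -0.09 for H2-DMa. The inhibitor and the second exchanger beta chain had values above 0, with 0.26 for H2-Ob, 0.07 for H2-DMb2 and 0.04 for H2-Oa. H2-Ob ranged from 8.75 to 28.7 CPM with AP (median 20.3), so that 12 of 16 mice lay above the vehicle median and 3 above every vehicle-treated mouse (95% interval of the log2 fold change -0.11 to 0.63, edgeR adjusted p = 0.396). None of the 10 B cell markers was called either. All 10 had fitted values above 0 (median log2 fold change 0.38), 4 had an unadjusted p under 0.05 (23.9% of all genes did), and their summed level ranged from 105 to 423 CPM with AP.

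In the third comparison, old AP against young mice, H2-Ob was again the 1 member called. It fell by 0.60 on the log2 scale (standard error 0.19, 95% interval -0.97 to -0.23, edgeR adjusted p = 0.0255), and 14 of 16 AP-treated mice lay below the young median. The background was 8.58% of all genes called, 3.73% higher and 4.85% lower. The call rested on 1 young mouse, since without young mouse 34 the log2 fold change was -0.52 and the adjusted p 0.0546. Beside it, 3 of the 10 B cell markers were called lower (median log2 fold change -0.55, with 2 to 5 called when 1 mouse was left out, 5 of them without old AP mouse 3), and whether they account for H2-Ob was not tested. The other members had fitted values from -0.33 for H2-DMb2 (edgeR adjusted p = 0.162) to -0.03 for Ciita, all below 0 and none called. Both comparisons with young mice share the young group, and the comparison of the old groups shares the vehicle group with the first, so that the 3 sets of values are not independent.

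Proportions between members within a mouse depend little on how the library was scaled. For 8 ratios in 3 comparisons, the difference in mean log2 ratio was tested by a two-sided permutation test, with Benjamini-Hochberg adjustment over the 24 tests, and 13 passed. The clearest concerned H2-Ob. Relative to H2-DMa, the chain of the exchanger that it opposes, H2-Ob had a mean log2 ratio (± SD) of -0.15 ± 0.32 in the 12 young, -1.02 ± 0.60 in the 13 old vehicle and -0.69 ± 0.56 in the 16 old AP mice. The ratio was lower by 0.87 in old vehicle than in young mice (difference -0.87, adjusted p = 0.00132 by permutation, 12 of 13 mice below the young median), and in old AP mice the difference was -0.54 (adjusted p = 0.0167). The old groups did not pass (0.33, adjusted p = 0.201).

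The chains of the inhibitor shifted against each other. The log2 ratio of H2-Oa to H2-Ob averaged -2.37 ± 0.31 in the 12 young, -1.71 ± 0.36 in the 13 old vehicle and -1.89 ± 0.38 in the 16 old AP mice. All 13 old vehicle mice lay above the young median (difference 0.67, adjusted p = 0.00132 by permutation), as did 15 of 16 old AP mice (difference 0.49, adjusted p = 0.00912). H2-DMb2 was lower relative to H2-DMb1 in old vehicle than in young mice by a log2 difference of -0.37 (adjusted p = 0.0333 by permutation), though the near-identical sequence of both genes makes this ratio uncertain.

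H2-Ab1 was high relative to H2-Aa and H2-Eb1 in old vehicle mice, against both other groups. The log2 ratio of H2-Aa to H2-Ab1, the chains of 1 molecule, averaged 0.71 ± 0.16 in the 12 young, 0.51 ± 0.15 in the 13 old vehicle and 0.68 ± 0.11 in the 16 old AP mice. With vehicle 12 of 13 mice lay below the young median (difference -0.20, adjusted p = 0.0154 by permutation), and with AP all 16 mice lay above the vehicle median (difference 0.17, adjusted p = 0.00912). The difference between old AP and young mice was -0.03 (adjusted p = 0.596). H2-Eb1 to H2-Ab1 followed the same course, with -0.14 for vehicle against young (adjusted p = 0.0333 by permutation), 0.13 for AP against vehicle (adjusted p = 0.0154, 16 of 16 mice above the vehicle median) and -0.0083 for AP against young (adjusted p = 0.825).

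Between the old groups, Cd74 (0.17, adjusted p = 0.0123), H2-DMa (0.24, adjusted p = 0.0488) and Ciita (0.23, adjusted p = 0.0488 by permutation) were also higher relative to H2-Ab1 with AP, so that all 5 ratios over H2-Ab1 passed in this comparison. They share H2-Ab1 and the same mice. Against young mice, Cd74 to H2-Ab1 differed with AP (0.16, adjusted p = 0.0167) and did not pass with vehicle (-0.02, adjusted p = 0.81). H2-DMa to H2-Ab1 did not pass against young mice with vehicle (-0.13, adjusted p = 0.165) or with AP (0.11, adjusted p = 0.293), and neither did Ciita to H2-Ab1 (-0.08, adjusted p = 0.474, and 0.15, adjusted p = 0.135 by permutation). These shifts are small on a linear scale. When medians were compared in place of means, 8 of the 24 tests passed, and those of H2-DMa and Ciita over H2-Ab1 between the old groups, of Cd74 over H2-Ab1 and H2-Ob over H2-DMa between AP-treated and young mice, and of H2-DMb2 over H2-DMb1 were lost.

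**Figure D3:**
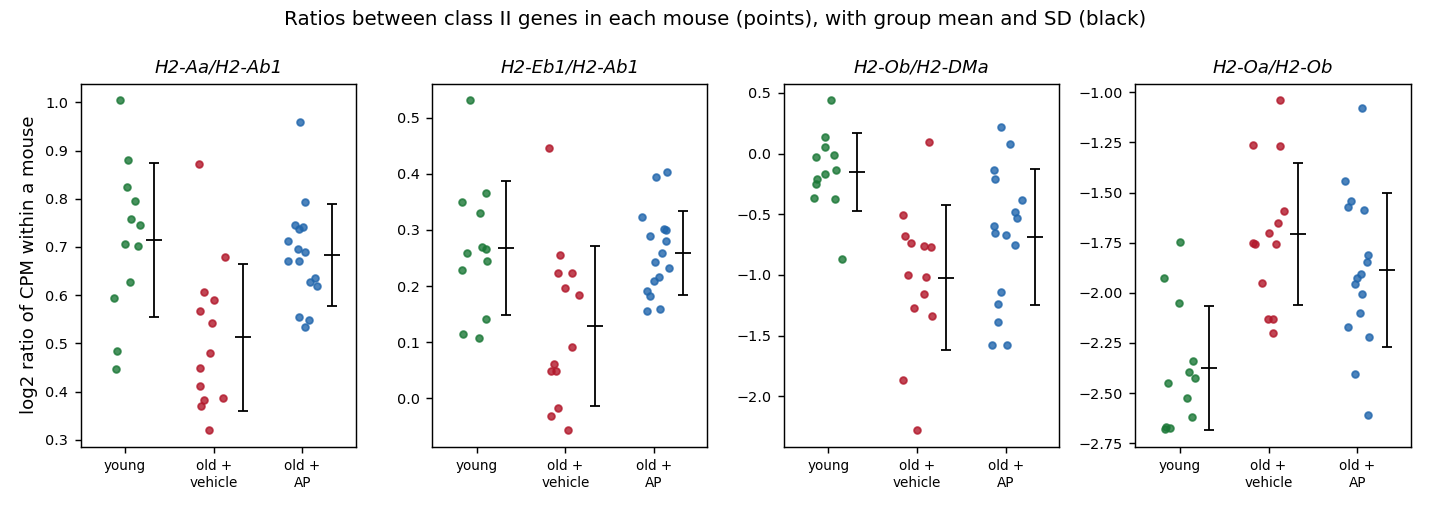
Log2 ratio of the CPM of a pair of class II genes within each mouse (points), by group, with the group mean and SD in black and an axis of its own for each ratio. The ratios of H2-Aa and H2-Eb1 to H2-Ab1 are lower with vehicle (means 0.51 and 0.13) than in young (0.71 and 0.27) or AP-treated mice (0.68 and 0.26), while H2-Ob to H2-DMa and H2-Oa to H2-Ob set both old groups apart from the young.

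The old vehicle mice differed from each other more than the young mice did. This was tested after the data had been seen, as the ratio of the SDs of log2 CPM, with a two-sided permutation test on values centred by group and adjustment over 30 tests. The CV of H2-Ab1 was 17.9% in young, 42.4% in old vehicle and 21.1% in old AP mice, and that of Cd74 was 16.7%, 38.04% and 18.7%. All 10 members had a larger SD in old vehicle than in young mice (ratios from 1.18 to 2.32, median 1.84), and 6 passed the test, namely H2-Ab1, H2-Eb1, Cd74, H2-Aa, H2-DMb1 and H2-DMa. The members moved together, with r from 0.974 to 0.995 between H2-Aa, H2-Ab1, H2-Eb1 and Cd74 in old vehicle mice. The tests of single genes, here and between the old groups, are therefore not independent. The median ratio over all genes was 1.21, and 3.17% of all genes had a ratio as high as that of H2-Ab1 (2.32, adjusted p = 0.0181 by permutation). For the other 5 that passed this share was between 4.34% (H2-Eb1) and 13.95% (H2-DMa, ratio 1.76, adjusted p = 0.0497 by permutation).

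With AP the spread was smaller than with vehicle. The SD ratio of old AP to old vehicle mice was under 1 for all 10 members (median 0.615, against 1.02 for all genes) and passed for 5, which were H2-DMb1 (0.460), Cd74 (0.474), H2-Ab1 (0.497), H2-Eb1 (0.541) and H2-Aa (0.545). Of all genes, between 97.4% (H2-Aa) and 99.3% (H2-DMb1) had a ratio at least as high as theirs. H2-DMa, which had passed for vehicle against young, did not pass here (0.685, adjusted p = 0.211 by permutation). The adjusted p of the 5 ranged from 0.0181 for Cd74 to 0.043 for H2-Eb1 by permutation. Between AP-treated and young mice 0 of the 10 passed, and 0 had an unadjusted p under 0.05 (permutation test). The genes that followed the B cell list best, H2-Ob, H2-DMb2 and H2-Oa, passed in none of the comparisons, with SD ratios of 1.39, 1.18 and 1.22 for vehicle against young.

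The wide spread came from both ends. Of the 13 old vehicle mice, 4 (mice 6, 14, 15 and 23) lay above the highest young mouse for at least 4 of the 10 genes, and 4 (mice 2, 16, 20 and 21) lay below the lowest young mouse for at least 4. With AP these counts were 0 and 2 of 16. Without any single mouse the SD ratio of H2-Ab1 for vehicle against young stayed between 2.14 and 2.72, and for AP against vehicle between 0.429 and 0.538, so that no single mouse made it.

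**Figure D4:**
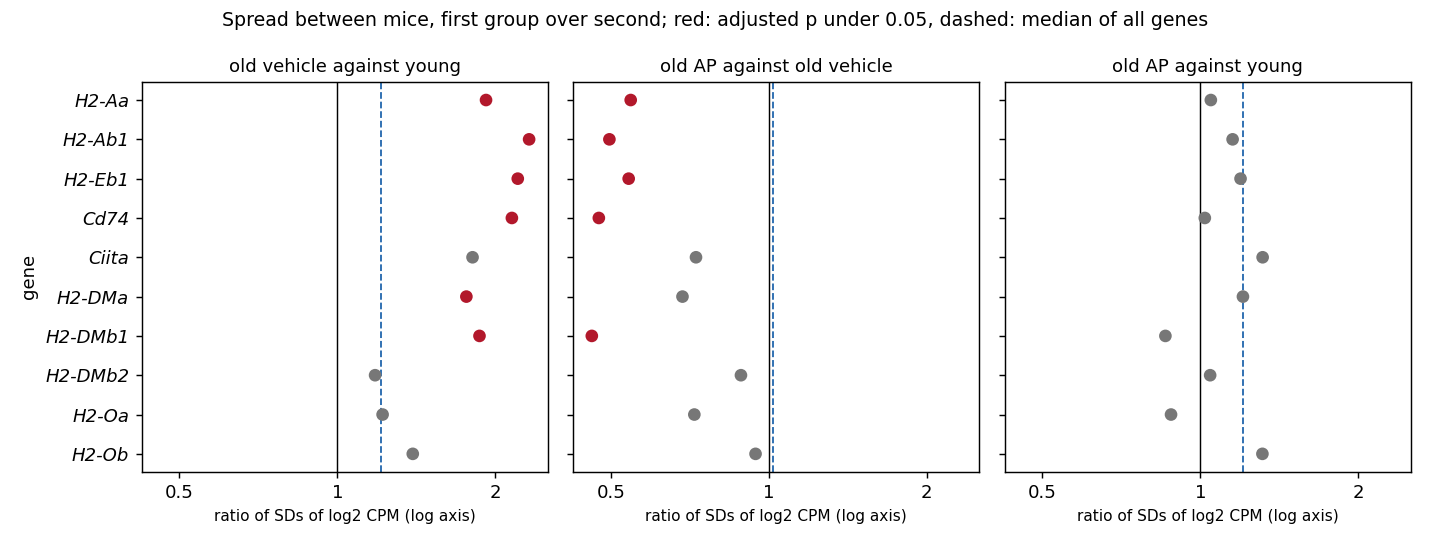
Ratio of the SD of log2 CPM between mice, first-named group over second, for each gene in the 3 comparisons (log axis), with genes at an adjusted p under 0.05 in red, equal spread as a black line and the median over all genes dashed. For vehicle against young all 10 ratios exceed 1 and 6 are red, for AP against vehicle all lie under 1 and 5 are red, and for AP against young none is red.

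Which marker genes the members followed from mouse to mouse was examined within each group, so that group differences play no part. H2-Ab1 was set against the mean z-score of 15 lists of cell type markers in 3 groups (45 relations, permutation p, Benjamini-Hochberg adjusted). It followed the dendritic cell list in young mice (r = 0.81, adjusted p = 0.032 by permutation, rho = 0.77, adjusted p = 0.0715) and in old vehicle mice (r = 0.83, adjusted p = 0.0225, rho = 0.82, adjusted p = 0.0383). In old AP mice the relation did not pass (r = 0.44, adjusted p = 0.26, rho = 0.36, adjusted p = 0.379 by permutation), and whether r differed between the groups was not tested. Without the 2 mice farthest from the median score, r was 0.63 in young mice (adjusted p = 0.208 by permutation), where it rests in part on those mice, and 0.88 in old vehicle mice (adjusted p = 0.0221). The plasmacytoid list passed for rho alone, in old vehicle mice (rho = 0.78, adjusted p = 0.0482, r = 0.74, adjusted p = 0.0648 by permutation).

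The macrophage, B cell and T cell lists did not pass for H2-Ab1 in any group. For macrophages r was 0.44 in young, 0.55 in old vehicle and -0.08 in old AP mice (rho = 0.43, 0.64 and -0.0029, smallest adjusted p = 0.108 by permutation). For B cells r was 0.50, 0.36 and 0.10 (rho = 0.45, 0.32 and 0, smallest adjusted p = 0.289). For T cells r was 0.60, 0.71 and 0.60 (rho = 0.70, 0.69 and 0.57, smallest adjusted p = 0.0823 for r and 0.101 for rho by permutation), and without the 2 farthest mice it was 0.83, 0.51 and 0.56 (smallest adjusted p = 0.0567). In young mice r was also 0.64 with monocytes, 0.63 with neutrophils, 0.61 with erythroid cells and -0.73 with skeletal muscle. None of these passed (adjusted p for r = 0.156, 0.160, 0.169 and 0.0823 by permutation). With skeletal muscle r was -0.23 in old vehicle and -0.04 in old AP mice.

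H2-Ob, examined in the same way after its values had been seen, followed the B cell list in every group. In young mice r was 0.95 and rho 0.95 (adjusted p = 0.000225 and 0.000675 by permutation), in old vehicle mice 0.93 and 0.92 (adjusted p = 0.000225 and 0.000675), and in old AP mice 0.87 and 0.88 (adjusted p = 0.00075 and 0.00075). Without the 2 farthest mice r was 0.92, 0.90 and 0.81 (adjusted p = 0.0042 in each by permutation). Besides B cells, of the 45 relations of H2-Ob only that with T cells in young mice passed, for rho alone (rho = 0.85, adjusted p = 0.0102, r = 0.73, adjusted p = 0.06 by permutation).

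The other 8 members were set against the B cell and dendritic cell lists alone (48 relations, chosen after the data had been seen). With the B cell list 6 of the 8 passed by r in young mice (r from 0.39 to 0.97), 2 in old vehicle mice (0.37 to 0.80) and 1 in old AP mice (-0.24 to 0.69). Those in young mice were Cd74, Ciita, H2-DMa, H2-DMb1, H2-DMb2 and H2-Oa. H2-DMb2 followed the B cell list in young (r = 0.97, adjusted p = 0.00016 by permutation, rho = 0.96, adjusted p = 0.00048), old vehicle (r = 0.78, adjusted p = 0.00536, rho = 0.79, adjusted p = 0.00701) and old AP mice (r = 0.69, adjusted p = 0.00461, rho = 0.77, adjusted p = 0.0041). H2-Oa did so in young (r = 0.86, rho = 0.83, adjusted p = 0.00203 and 0.00476 by permutation) and old vehicle mice (r = 0.80, rho = 0.83, adjusted p = 0.00357 and 0.0041). With the dendritic cell list, all 8 passed by r in young mice (r from 0.62 to 0.94) and in old vehicle mice (r from 0.73 to 0.90), and 5 did so in old AP mice (r from 0.31 to 0.77). Without the 2 farthest mice 3, 6 and 0 of the 8 still passed with the dendritic cell list, and 2, 0 and 1 with the B cell list. All of these values come from 1 library per mouse, so that its make-up enters both sides of each relation.

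**Figure D5:**
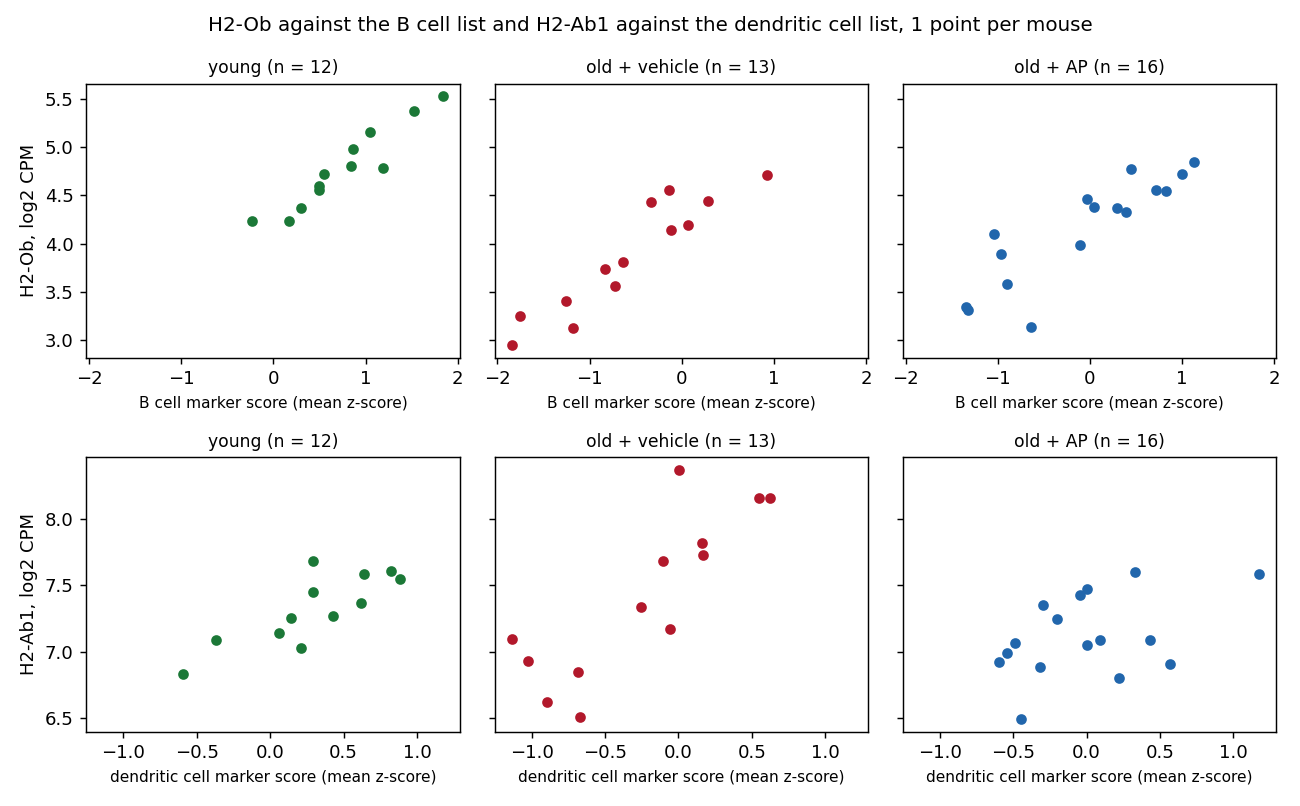
Level of H2-Ob (log2 CPM) against the B cell marker score (upper row) and of H2-Ab1 against the dendritic cell marker score (lower row), within each group, with 1 point per mouse and scores as mean z-scores. H2-Ob lies close to a line in all groups (r = 0.95, 0.93 and 0.87), and H2-Ab1 follows the dendritic cell score in young and old vehicle mice (r = 0.81 and 0.83), with r = 0.44 in old AP mice, where it did not pass.

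Single genes of these lists differed between groups too, and no list was tested as a whole. Of 8 dendritic cell genes, 3 were called lower in old vehicle than in young mice, namely Clec9a (log2 fold change -1.28), Ccr7 (-1.02) and Cd209a (-0.95). Between the old groups 0 were called (3 had an unadjusted p under 0.05 by edgeR, as did 23.9% of all genes). In old AP against young mice 2 were called higher and 2 lower. Itgax, the most abundant of the 8, had a log2 fold change of 0.57 with age (edgeR adjusted p = 0.265) and of 0.95 in AP-treated against young mice (adjusted p = 0.0452). The latter call held in 24 of the 41 fits that left out 1 mouse each. Old AP mouse 24 had 195 CPM of Itgax and the next mouse 43.95 CPM, and without mouse 24 the value was 0.43 (edgeR adjusted p = 0.223). That mouse also had the highest summed level of macrophage genes among old AP mice, with 1779 CPM against 1090 CPM in the next. Zbtb46, a transcription factor of dendritic cells, had -0.04 and 0.01. Of 10 macrophage genes, 1 was called lower in each comparison with young mice, which was the scavenger receptor Cd163 (-0.85 and -0.94, edgeR adjusted p = 0.00143 and 0.00034), while 5 of the 10 fitted values lay above 0 in each. This count is close to the share of all genes called in these comparisons, 9.06% and 8.58%. The most abundant were Csf1r, a growth factor receptor of these cells, with -0.06 and -0.10, and the complement gene C1qb, with 0.33 and 0.37. Summed over each list, the ranges overlapped, with 68.9 to 125 CPM in young, 58.7 to 147 CPM in old vehicle and 68.6 to 258 CPM in old AP mice for dendritic cells. T cell markers reached 491 CPM in old AP mouse 18, whose next neighbour had 65.0 CPM, and that mouse also had the highest Cd74, H2-DMa and H2-DMb1 levels of its group. Without it the members' calls were the same, while Cd8a, a T cell coreceptor chain, went from a log2 fold change of 1.59 to 0.22 in old AP against young mice (edgeR adjusted p = 0.0288 and 0.632).

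Over all 41 mice and the 15541 genes with a mean of at least 1 CPM, the likeness of each gene to H2-Ab1 was measured as Spearman's rho of log2 CPM. The nearest were H2-Eb1 (rho = 0.92), Cd74 (0.90) and H2-Aa (0.89), and H2-DMb1 (0.84), Ciita (0.79) and H2-DMa (0.79) were among the 7 nearest. H2-Oa ranked 47 (0.60), H2-DMb2 227 (0.52) and H2-Ob 2082 (0.30). Outside the members the nearest were Mir5107, which lies within Cd74 (0.89), Psmb10, a subunit of the immunoproteasome (0.76), Gpr162 (0.75), and the class I genes H2-K1 (0.73), H2-Q4 (0.70) and H2-Q7 (0.69). For H2-Ob, which was added after its values had been seen, among the nearest were the B cell genes Ighd (0.93), Ms4a1 (0.91), Cxcr5 (0.89), Fcer2a (0.89) and Cd79a (0.88), and H2-DMb2 was the nearest member, at rank 9 (0.88). The 3 groups are pooled in these values, so that group differences enter them.

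Of 36 genes on a list of further class II chains, transcription factors, interferon gamma inputs, proteases, surface turnover, costimulators and receptors, 35 were tested and 0, 0 and 1 were called in the 3 comparisons by edgeR and by DESeq2. With 1 mouse left out the edgeR count with age was 1 in 6 of 41 fits (without old vehicle mouse 2, 7, 16 or 20, or young mouse 33 or 35), and in old AP against young mice it ranged from 0 to 2 (2 without young mouse 33). By edgeR 9, 11 and 8 had an unadjusted p under 0.05 in the 3 comparisons. These are 25.7%, 31.4% and 22.9% of the list, beside 31.8%, 23.9% and 32.2% of all genes tested. H2-Ea-ps, the pseudogene of the I-E alpha chain, was the one not tested, with at most 2 counts in any mouse. The gene called was Cd274, which encodes the inhibitory ligand PD-L1 and was higher in old AP than in young mice (log2 fold change 0.60, adjusted p = 0.016 by edgeR). Without old AP mouse 18 it was 0.49, under the fold threshold (edgeR adjusted p = 0.043). For vehicle against young Cd274 had 0.49 (edgeR adjusted p = 0.0566).

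Among the 11 transcription factors, none was called in any comparison, and the median log2 fold change was -0.03 with age, 0.11 between the old groups and 0.09 for AP against young. The 7 proteases and their kin had medians of 0.10, -0.12 and -0.0015. Those named here are the most abundant genes of the list. Ctsb, a lysosomal protease, had log2 fold changes of 0.08, -0.0077 and 0.07 in the 3 comparisons, and Ctsl, another, had -0.02, -0.18 and -0.20. For Ctss, the cathepsin that trims the invariant chain, the values were 0.21, 0.15 and 0.36, and for Cst3, a cathepsin inhibitor, 0.10, -0.25 and -0.15. Ctsd, the aspartic protease of the lysosome, had 0.29, -0.08 and 0.21, and passed the adjusted p but not the fold threshold with age (edgeR adjusted p = 0.0455, and 0.121 without old vehicle mouse 16). Jak1, a kinase of the interferon receptors, had -0.14, 0.11 and -0.03.

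Levels of the members were also set against Cdkn2a within each group (30 relations, chosen after the data had been seen), and none passed by r or by r without the 2 farthest mice. In old vehicle mice r was 0.69 for H2-Ab1 (rho = 0.62, permutation p = 0.00935 and 0.0285, adjusted p = 0.142 for r) and -0.05 for H2-Ob (rho = -0.08), and in old AP mice r was 0.11 (rho = 0.34) and -0.40 (rho = -0.31).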

How the data were processed

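Tibial RNA of 41 mice had been sequenced on a HiSeq2000 and aligned to mm10, and the authors deposited raw counts per gene without normalization. The submitters' processing notes name TopHat2 2.0.6, HTSeq and GRCm38. The annotation release and the strand setting are not given in the sources used here. The labels call the extracted molecule genomic DNA, whereas the study's methods describe RNA. They name no batch. Replicates of a group differed by more than sampling noise in all pairs, so that each mouse was 1 replicate.

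From the counts, edgeR 4.0.16 (R 4.3.3) gave TMM scaling, a filter by expression and a quasi-likelihood test in 1 model of the 3 groups, with Benjamini-Hochberg adjustment over all 19292 genes tested. Calls needed an adjusted p under 0.05 together with a log2 fold change beyond 0.5 in size. Log2 CPM used a prior count of 2. Permutation tests used 100000 resamples in SciPy 1.17.1 and NumPy 2.4.6 (smallest p 1e-05). DESeq2 1.42.0, its size factors, no filter, models of 2 groups, no fold threshold, a prior count of 0.5, medians and each mouse left out in turn were the alternatives. Scripts were tested on simulated data.

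The 10 members, the pathway list, the 15 marker lists and the named genes were chosen with earlier results of these data known. Named were all members, each pathway gene called and the 6 most abundant others, the 2 most abundant genes of the marker lists described, and the 6 genes most like H2-Ab1. A gene that falls under these rules is not reported here. In 4 cases a listed symbol was matched by Ensembl identifier (Marchf1, Marchf8, Jchain and Adgre1). The tests of spread, those of H2-Ob against marker lists, the likeness to H2-Ob, the relations of the other members and of Cdkn2a, the counts of list genes with each mouse left out, the comparison of neighbouring levels, and the naming of Cd3e, Cd163, Clec9a, Ccr7 and Cd209a came later, after the values were known.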

Additional observations from a re-analysis of the deposited data

How the results depend on the processing

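The call of H2-Ob held under every alternative in old vehicle against young mice, with a log2 fold change from -0.94 to -0.78 over 41 fits that left out a mouse. In old AP against young mice the number of members called ranged from 0 to 1 over such fits, and the 1 fit without a call was that without young mouse 34. Between the old groups 0 members were called in all fits. Without a fold threshold, 3 of the 35 pathway genes were past the adjusted p in old vehicle against young mice, in place of 0, beside 19.4% of all genes. The number of ratios past the threshold was 8 with medians and 12 with a prior count of 0.5, in place of 13, and 6 of 48 single ratio results were lost. The number of relations of H2-Ab1 with marker lists was 1 in place of 2 without the 2 farthest mice. The cause was not tested. Of 120 log2 fold changes of members under other tools and settings, 2 changed sign, both of H2-DMb1 in old vehicle against young mice, from -0.0035 to 0.0024 with DESeq2 and 0.0025 with its size factors. With a mouse left out, 37 of 1230 changed sign, all of values near 0. Such values ranged, in old vehicle against young mice, from -0.11 to 0.016 for H2-Aa, from -0.040 to 0.099 for H2-Eb1, from -0.025 to 0.15 for Ciita, from -0.066 to 0.061 for H2-DMa and from -0.061 to 0.050 for H2-DMb1. They ranged from -0.018 to 0.12 for H2-Oa between the old groups and from -0.074 to 0.025 for Ciita in old AP against young mice. No paired analysis was possible because each mouse number belongs to 1 group alone. The labels name no batch, so that a batch that followed age cannot be told apart from age. With at least 103 counts for each member in each mouse, counting error was at most 9.85% of a count, against CVs between mice from 14.9% to 42.4%.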

Other observations

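The other cell type lists gave these counts by edgeR, beside the class II genes. Of all genes tested, 9.06% were called with age and 8.58% in old AP against young mice. Single calls in lists this short stand near these shares. An unadjusted p under 0.05 was held by 31.8% and 32.2% of all genes. Of 8 plasma cell genes, 1 was called higher in each comparison with young mice, while Jchain and Xbp1, the most abundant, had log2 fold changes with age of 0.26 and 0.22. Of 6 plasmacytoid dendritic cell genes, 3 were called lower with age and 0 in old AP against young mice (5 had an unadjusted p under 0.05). The highest of these 6 averaged 376 CPM and the next 44.1 CPM. Their summed level was highest in the mouse with the highest muscle sum among young (mouse 40) and old AP mice (mouse 9), not among old vehicle mice. Of 7 T cell genes, 0 were called with age (2 had an unadjusted p under 0.05) and 4 were called higher in old AP against young mice. The most abundant, Lck and Cd8a, had log2 fold changes of 0.74 and 1.59 in the latter. Without old AP mouse 18 these counts were 3 and 2, and Cd3e, a chain of the T cell receptor complex, went from a log2 fold change of 1.12 to 0.55 in old AP against young mice (edgeR adjusted p = 0.0146 and 0.0715). Of 8 neutrophil genes, 0 were called with age (2 unadjusted) and 2 were called higher in old AP against young mice, and of 5 monocyte genes 0 (0 unadjusted) and 1 (higher). Of 7 erythroid genes 3 were called lower with age and 2 lower in old AP against young mice. For bone, 3 and 6 of 8 osteoblast genes were called lower in these comparisons, and of 6 osteocyte genes 2 were called higher and 1 lower, then 2 higher and 2 lower. No gene of the osteoclast list (6 genes, 0 unadjusted in both) or the endothelial list (6 genes, 1 and 2 unadjusted) was called. Of 7 skeletal muscle genes 1 was called higher with age and 0 in old AP against young mice (0 unadjusted), and of 6 adipocyte genes 1 higher and 1 lower, then 1 lower. Between the old groups 0 of the 80 genes of these 12 lists were called, beside 0.0726% of all genes. An unadjusted p under 0.05 was held by 7 of the 80, beside 23.9% of all genes. DESeq2 was not counted over these lists. Other small counts changed with the mice that entered. Over the 41 fits that left out 1 mouse each, the number called with age ranged from 0 to 1 for plasma cells (0 without old vehicle mouse 13), from 2 to 5 for erythroid cells and from 0 to 2 for skeletal muscle, where 29 of the fits had 0. In old AP against young mice it ranged from 0 to 2 for plasmacytoid dendritic cells, from 1 to 5 for neutrophils (16 of the fits had 1), from 1 to 4 for erythroid cells, from 2 to 4 for osteocytes and from 1 to 3 for adipocytes.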
